A study of Schmidtea mediterranea with 8 samples.

Results

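The 4 neuronal markers described here are *chat* (dd_Smed_v4_6208_0_1), *pc2* (dd_Smed_v4_1566_0_1), *syn* (dd_Smed_v4_3135_0_1) and _1020HH_ (dd_Smed_v4_5133_0_2). They were chosen by name, as contigs that the study lists with expression in the central nervous system (CNS), and make up 4 of the 38634 contigs of the *Schmidtea mediterranea* transcriptome that were measured. *chat* encodes choline acetyltransferase, which makes acetylcholine and marks cholinergic neurons. *pc2* encodes prohormone convertase 2, the protease that cleaves prohormones into active peptides and is used as a broad neuronal marker in planarians. *syn* encodes synapsin, a protein of the surface of synaptic vesicles. _1020HH_ is a peptide prohormone gene.

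The planarian brain consists of paired cephalic ganglia joined to ventral nerve cords, and its neurons are replaced throughout life from dividing stem cells called neoblasts. In the Hedgehog pathway the ligand Hh binds its receptor Ptc, and so relieves the block that Ptc places on signaling. Loss of *hh* therefore lowers pathway activity and loss of *ptc* raises it. The RNA was taken to find which transcripts of the CNS respond to such a change.

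The 8 libraries sequenced fall into 4 groups of 2. Cephalic ganglia (called CNS) were dissected from sexual animals of the S2F1L3F2 strain after 12 feedings of dsRNA against *hh*, against *ptc*, or against *unc-22* as the control, a *C. elegans* gene with no counterpart in planarians. Whole head fragments, which hold the ganglia together with the other tissues of the head, came from asexual CIW4 animals after 6 feedings of the control dsRNA. All 8 libraries thus come from dsRNA-fed animals, with no unfed group. The RNA input was 0.2 µg for a CNS library and 1.0 µg for a head library, so tissue, strain, feedings, dissection and input differ together and cannot be told apart. Libraries were prepared in duplicate, and no source used here says that they came from separate animals, so p-values measure only the spread between libraries.

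Between 11479783 and 18932854 reads per library mapped to contigs, and the 4 markers drew from 121 reads (_1020HH_ in a head library) to 48483 (*pc2* in an *hh(RNAi)* library). The libraries of a group are called a and b, letters that do not pair libraries between groups. Among contigs averaging 100 or more normalized reads, the SD of the log2 difference of library a from library b was 0.53 in *hh(RNAi)* CNS, 0.42 in *ptc(RNAi)* CNS, 0.34 in control CNS and 0.15 in head fragments. The RNAi groups were thus the least even. *hh* had 42 and 75 reads in *hh(RNAi)* CNS, against 245 and 205 in control CNS. Its log2 fold change of -2.01 missed the threshold in limma (adjusted p = 1.0) and passed it in DESeq2 (adjusted p = 0.0037). *ptc* had 194 and 198 reads in *ptc(RNAi)* CNS, against 290 and 285 in control CNS, and its log2 fold change of -0.58 was not called (limma adjusted p = 0.31).

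Levels are given as normalized reads, the reads of a library divided by its size factor, with all 8 libraries scaled together. *chat* stood at 19672 and 15036 normalized reads in *hh(RNAi)* CNS, 11243 and 13711 in *ptc(RNAi)* CNS, 15259 and 13984 in control CNS, and 2237 and 2328 in head fragments. *pc2*, the most abundant of the 4 by reads, stood at 45349 and 41818 in *hh(RNAi)* CNS, 36041 and 40142 in *ptc(RNAi)* CNS, 39896 and 40058 in control CNS, and 6836 and 7113 in head fragments. *syn* stood at 6067 and 5082 in *hh(RNAi)* CNS, 4823 and 5076 in *ptc(RNAi)* CNS, 5020 and 5213 in control CNS, and 2071 and 2160 in head fragments. In each of these 3 genes all 6 CNS libraries lay above both head libraries. How many of all contigs did so was not counted. _1020HH_ stood at 6083 and 8473 normalized reads in *hh(RNAi)* CNS, 7282 and 5768 in *ptc(RNAi)* CNS, 7904 and 7855 in control CNS, and only 110 and 103 in head fragments. Its CNS and head libraries were the furthest apart of the 4 genes. Contig lengths were not used here, so these levels compare a gene between groups, not genes with each other.

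**Figure D1:**
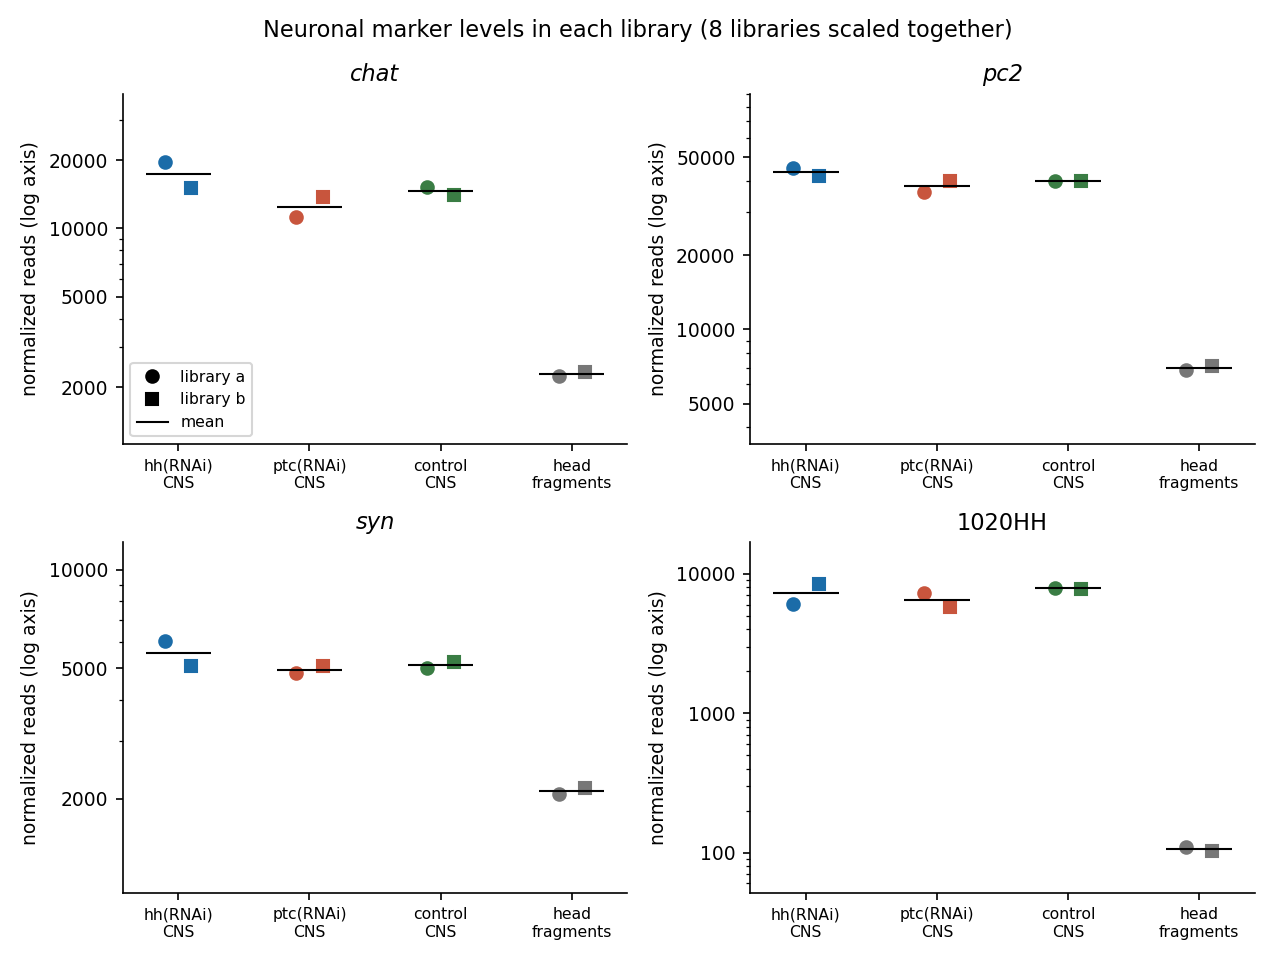
Normalized reads (log axis) of *chat*, *pc2*, *syn* and _1020HH_ in each of the 8 libraries, scaled together, with *hh(RNAi)* CNS, *ptc(RNAi)* CNS, control CNS and head fragments from left to right; circles and squares are libraries a and b, and the line is their mean. All 6 CNS libraries lie above both head libraries for each gene, and the distance is greatest for _1020HH_, at 5768 to 8473 normalized reads in CNS against 103 and 110 in head fragments. How many of all contigs show such a separation was not counted.

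*chat* averaged 17354 ± 3278 normalized reads in *hh(RNAi)* CNS, 12477 ± 1745 in *ptc(RNAi)* CNS, 14621 ± 902 in control CNS and 2283 ± 64.1 in head fragments (SD, n = 2 each). Its order of groups, high to low, was therefore *hh(RNAi)* CNS, control CNS, *ptc(RNAi)* CNS, head fragments. Of these neighbours, *hh(RNAi)* and control CNS overlapped, whereas the libraries of *ptc(RNAi)* and control CNS did not. *pc2* and *syn* had the same order of groups as *chat*. For *pc2* the means were 43584 ± 2497 in *hh(RNAi)* CNS, 38092 ± 2900 in *ptc(RNAi)* CNS, 39977 ± 114 in control CNS and 6975 ± 196 in head fragments, and both *hh(RNAi)* libraries lay above both control CNS libraries while *ptc(RNAi)* overlapped control CNS. For *syn* they were 5574 ± 697 in *hh(RNAi)* CNS, 4949 ± 179 in *ptc(RNAi)* CNS, 5117 ± 137 in control CNS and 2115 ± 62.8 in head fragments, and neighbours among the CNS groups overlapped. _1020HH_ averaged 7278 ± 1690 in *hh(RNAi)* CNS, 6525 ± 1070 in *ptc(RNAi)* CNS, 7880 ± 34.4 in control CNS and 106 ± 5.06 in head fragments. Control CNS was thus its highest group, and its neighbouring CNS groups overlapped too. How often the libraries of neighbouring groups lie apart over all contigs was not counted, so these separations are given as values only.

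The first comparison asked how the level of each marker in dissected CNS compared with that in whole head fragments. In control CNS over head fragments all 4 markers rose. _1020HH_ was 80.7-fold higher (95% confidence interval 71.1 to 91.4), *chat* 7.03-fold (6.11 to 8.10), *pc2* 6.30-fold (5.49 to 7.23) and *syn* 2.66-fold (2.36 to 2.99). Each test was a limma fit to log2(normalized reads + 1) in the 4 libraries concerned, with Benjamini-Hochberg adjustment over 13494 contigs. To be called, a contig had to change by over 2-fold with its adjusted p below 0.05. The log2 fold changes were 6.33 for _1020HH_ (SE 0.07, adjusted p = 9.7e-06), 2.81 for *chat* (SE 0.08, adjusted p = 3.1e-05), 2.66 for *pc2* (SE 0.08, adjusted p = 3.3e-05) and 1.41 for *syn* (SE 0.06, adjusted p = 6.5e-05). Calls in this direction were common, made for 32.7% of all tested contigs (4418, against 3000 or 22.2% lower), so that 4 of 4 says little by itself. With fold changes taken relative to the median contig, the split was 3417 higher and 3711 lower. The sizes of the changes separate the genes more clearly. Only 0.341% of tested contigs had a larger log2 fold change than _1020HH_, against 5.99% for *chat*, 6.97% for *pc2* and 23.4% for *syn*.

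The median tested contig was itself shifted by 0.32 on the log2 scale in this comparison, and scaling all 8 libraries together gives values 0.14 lower. Relative to that median the markers stood at 6.01 (_1020HH_), 2.49 (*chat*), 2.33 (*pc2*) and 1.09 (*syn*), so *syn* came close to the 2-fold limit. Most markers of other tissues moved the opposite way. Among 22 contigs whose pattern the study lists without the label CNS, 16 were tested. Of these, 3 rose and 10 fell in limma (2 and 11 in edgeR and DESeq2), with a median of -1.69. The highest, *netrin 2* at 2.50, is described by the study in the neuropil, which is part of the CNS. The summed level of the 22 contigs was 20029 and 24713 normalized reads in control CNS, against 106789 and 107642 in head fragments. Of those named, *mag-1* (gland) had a log2 fold change of -4.48, *collagen* (muscle) of -4.44, *mhc6* (muscle) of -2.74, *ca* (protonephridia) of -2.60, *agat-1* (epidermal progenitors) of -2.13, *mat* (gut) of -2.08 and *smedwi-1* (neoblasts) of -1.59. Each of these 7 fell past the threshold. None of them was at 0 in control CNS, where reads in a library ranged from 56 for *ca* to 6401 for *mhc6*. The eye gene *ovo*, named after its values were seen, had 1 and 0 reads in control CNS, against 5 in each head library, and was not tested. The other photoreceptor markers were split. *tyrosinase* had 10 and 13 reads in control CNS against 106 and 82 in head fragments. *sp6-9* went the other way, with 81.4 and 95.8 normalized reads in control CNS against 39.3 and 36.6 in head fragments. *gapdh*, used as a housekeeping gene, had 38068 and 44063 normalized reads in control CNS, against 48312 and 48909 in head fragments, a log2 difference of -0.11 in limma (95% confidence interval -0.41 to 0.19). It was not called by limma, edgeR or DESeq2, but had an unadjusted p under 0.05 in edgeR and DESeq2. In such bulk samples, more cells of a type and more RNA per cell cannot be told apart.

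CNS of *hh(RNAi)* and *ptc(RNAi)* animals was set against head fragments in the same way. These comparisons share the head libraries with the control one, so the values are set side by side. Against head fragments, *hh(RNAi)* CNS had log2 fold changes of 6.19 for _1020HH_ (SE 0.22), 3.04 for *chat* (SE 0.18), 2.77 for *pc2* (SE 0.18) and 1.52 for *syn* (SE 0.15). All 4 rose, with adjusted p from 2.5e-04 to 8.4e-04 in limma, where 30.5% of tested contigs were called higher. *ptc(RNAi)* CNS had 6.04 for _1020HH_ (SE 0.14), 2.57 for *chat* (SE 0.12), 2.57 for *pc2* (SE 0.11) and 1.35 for *syn* (SE 0.09). Here too all 4 rose, with adjusted p from 1.2e-05 to 7.0e-05 in limma, where 30.9% of tested contigs were called higher. _1020HH_ had the highest and *syn* the lowest fold change of the 4 in each CNS group.

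**Figure D2:**
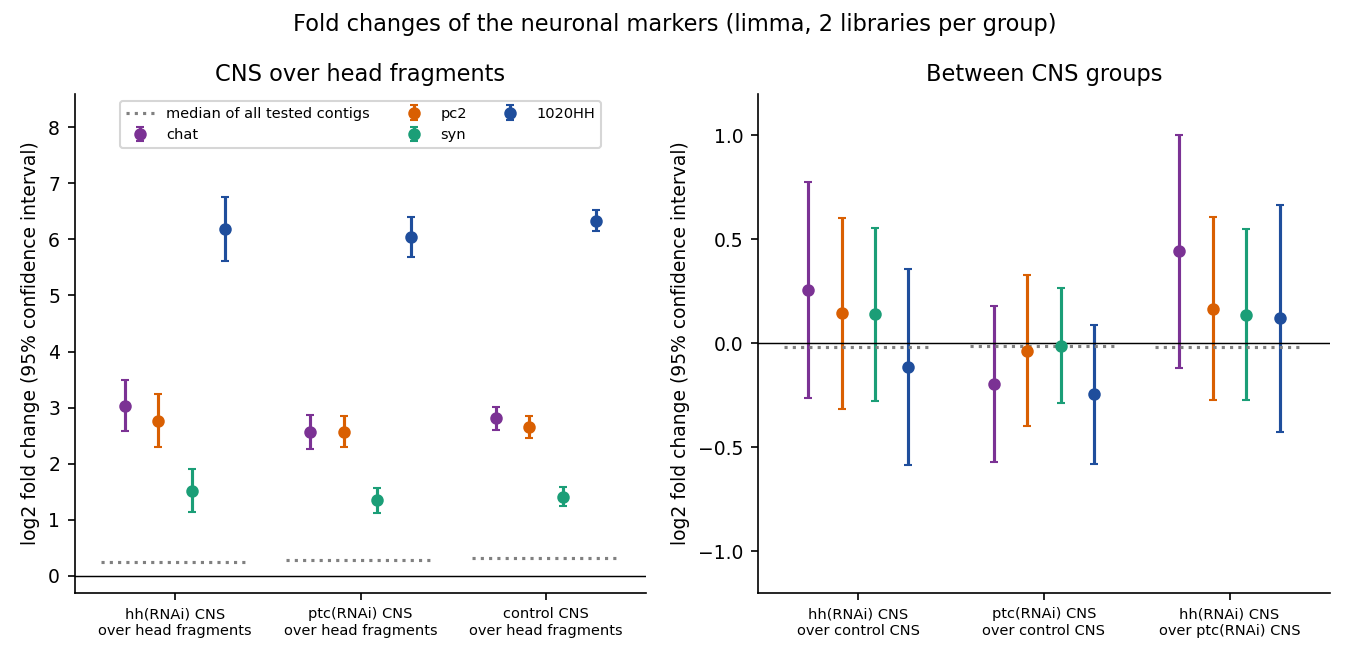
Log2 fold changes of the 4 markers with 95% confidence intervals (limma, 2 libraries per group); the left panel sets the 3 CNS groups over head fragments and the right panel compares CNS groups, on a narrower axis, with a dotted line at the median of all tested contigs. In each CNS group _1020HH_ lies above 6 and *syn* between 1.35 and 1.52, while the intervals between CNS groups include 0 for all 4 markers.

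The ratio of the reads of a pair of markers within a library does not depend on how libraries are scaled. These ratios are given as values, without a test. _1020HH_ had 1.003 and 1.67 reads for each read of *syn* in *hh(RNAi)* CNS, 1.51 and 1.14 in *ptc(RNAi)* CNS, 1.57 and 1.51 in control CNS, and 0.053 and 0.048 in head fragments. The mean ratio in control CNS was thus 30.6-fold that in head fragments. *chat* over *syn* was 3.24 and 2.96 in *hh(RNAi)* CNS, 2.33 and 2.70 in *ptc(RNAi)* CNS, 3.04 and 2.68 in control CNS, and 1.08 in both head libraries. *pc2* over *syn* lay between 7.47 and 8.23 in the 6 CNS libraries, against 3.29 and 3.30 in head fragments. In the mean of each CNS group, both ratios to *syn* were between about 2.33-fold and 2.87-fold those in head fragments. *chat* over *pc2* differed far less between the tissues, with 0.312 to 0.434 in the 6 CNS libraries and 0.327 in both head libraries. In CNS over head fragments, *chat* and *pc2* thus differed by similar factors, *syn* by a smaller one and _1020HH_ by a larger one.

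**Figure D3:**
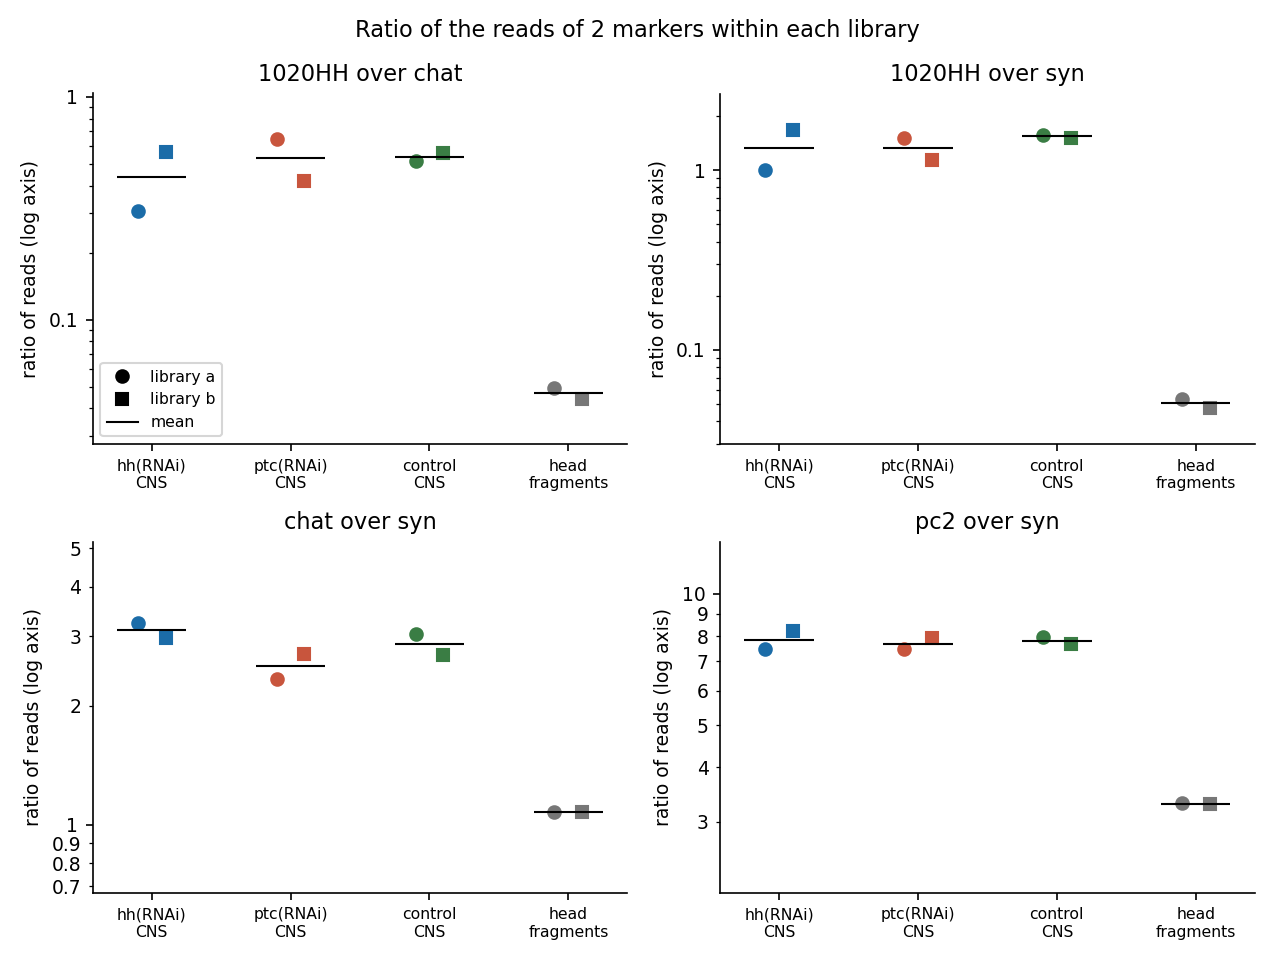
Ratio of the reads of 2 markers within each library (log axes), for _1020HH_ over *chat*, _1020HH_ over *syn*, *chat* over *syn* and *pc2* over *syn*; groups run from *hh(RNAi)* CNS to head fragments, circles and squares are libraries a and b, and the line is their mean. Head fragments lie below all CNS libraries in each panel, and _1020HH_ over *syn* is 1.003 to 1.67 in CNS against 0.048 and 0.053 in head fragments.

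Placed among other genes of their kind, the markers fell into different parts of the range. The classes are those of a panel of neuronal genes listed by the study. Of 16 prohormone and neuropeptide genes, 15 rose in control CNS over head fragments, with a median log2 fold change of 5.73 against 0.32 over all tested contigs. They ran from *npp-18* at 0.50, which was not called, to *ppl-1* at 7.27. _1020HH_ at 6.33 lay in the upper part of that range. The panel also holds _1020HH-1_, a contig of the same assembly component as _1020HH_, so part of that likeness may be built in. *pc2*, whose enzyme cuts such prohormones, was the only gene of its class on the panel, and at 2.66 it stood below 15 of the 16 prohormone genes. Of 7 genes of synaptic vesicles and transmitter release all rose, with a median of 2.63, from *syn* itself at 1.41 to the synaptotagmin *syt1-1* at 3.45. *chat* at 2.81 and the vesicular acetylcholine transporter *VAchT* at 2.06, the 2 genes of cholinergic transmission, both rose. Of the 4 ion channel and pump genes (median 2.13), limma called 4 higher, and edgeR and DESeq2 called 3. The rest of the panel was more mixed. Of 6 tested genes that make or transport other transmitters 4 rose, with a median of 2.16, and of 26 other tested panel genes 18 rose, 3 fell and 5 were not called, with a median of 1.52. In *hh(RNAi)* and *ptc(RNAi)* CNS over head fragments, the same counts of 15 of 16 prohormone genes, 7 of 7 vesicle genes and 2 of 2 cholinergic genes were called higher. The shares called higher over all tested contigs were 32.7% in control, 30.5% in *hh(RNAi)* and 30.9% in *ptc(RNAi)* CNS over head fragments.

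Likeness of expression profiles was measured as the root mean square distance between log2(normalized reads + 1) over the 8 libraries, each profile centred on its own mean, among 83 other named contigs. The difference between CNS and head dominates these profiles. Nearest to *chat* was *pc2* (distance 0.14), followed by *Tcf/Lef-1* (0.16) and a potassium channel (0.18). Nearest to *pc2* were the synaptogyrin gene *syngr* (0.12), the same potassium channel (0.14) and *chat* (0.14). Nearest to *syn* were *unc-13*, which primes vesicles for release (0.057), the vesicular glutamate transporter *VGluT* (0.076) and *netrin 1* (0.13). Nearest to _1020HH_ were its neighbouring contig _1020HH-1_ (0.064), the insulin-like peptide gene *ilp-1* (0.12) and the prohormone gene *spp-2* (0.14). Over all 12936 contigs compared, unnamed ones included, 23 to 78 lay closer to *chat* than its 3 named neighbours, 109 to 168 closer to *pc2*, 4 to 265 closer to *syn* and 0 to 10 closer to _1020HH_.

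A gene in this assembly can be split over several contigs of a component, and reads were assigned to their best single alignment. *syn* shares its component with dd_Smed_v4_3135_0_2. This second contig had 4521 and 3788 reads in *hh(RNAi)* CNS, 3901 and 3691 in *ptc(RNAi)* CNS, 3801 and 3818 in control CNS, and 1203 and 1140 in head fragments. It rose more than *syn* in control CNS over head fragments, by a log2 fold change of 2.29 (SE 0.08, limma adjusted p = 4.9e-05) against 1.41. Of the reads on both contigs, the second held 41.1% and 45.8% in *hh(RNAi)* CNS, 45.2% and 42.5% in *ptc(RNAi)* CNS, 44.1% and 44.3% in control CNS, and 29.3% and 31.0% in head fragments. The exact 95% binomial intervals, which cover counting error only, ran from 40.2% upwards in CNS libraries and up to 32.5% in head libraries. With reads summed over the contigs of each component, the log2 fold change in control CNS over head fragments was 1.62 for *syn*, 2.70 for *chat*, 2.54 for *pc2* and 6.16 for _1020HH_, so *syn* was the lowest of the 4 on this scale as well. Whether the contigs are isoforms or separate copies was not analysed here.

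_1020HH_ shares its component with dd_Smed_v4_5133_0_1, named _1020HH-1_ on the study's panel. This contig had 6494 and 7690 reads in *hh(RNAi)* CNS, 7287 and 5687 in *ptc(RNAi)* CNS, 7634 and 7165 in control CNS, and 163 and 139 in head fragments. _1020HH_ itself had 6503 and 7468 reads in *hh(RNAi)* CNS, 7152 and 5672 in *ptc(RNAi)* CNS, 7572 and 7219 in control CNS, and 154 and 121 in head fragments. The share of _1020HH-1_ in the reads of both lay between 49.8% and 50.7% in the 6 CNS libraries, and was 51.4% and 53.5% in head fragments. How reads are divided between so even a pair is uncertain, and a value for either contig is uncertain with it. A contig of another component named _1020HH-2_ (dd_Smed_v4_798_0_1) had a log2 fold change of 5.72 in control CNS over head fragments.

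**Figure D4:**
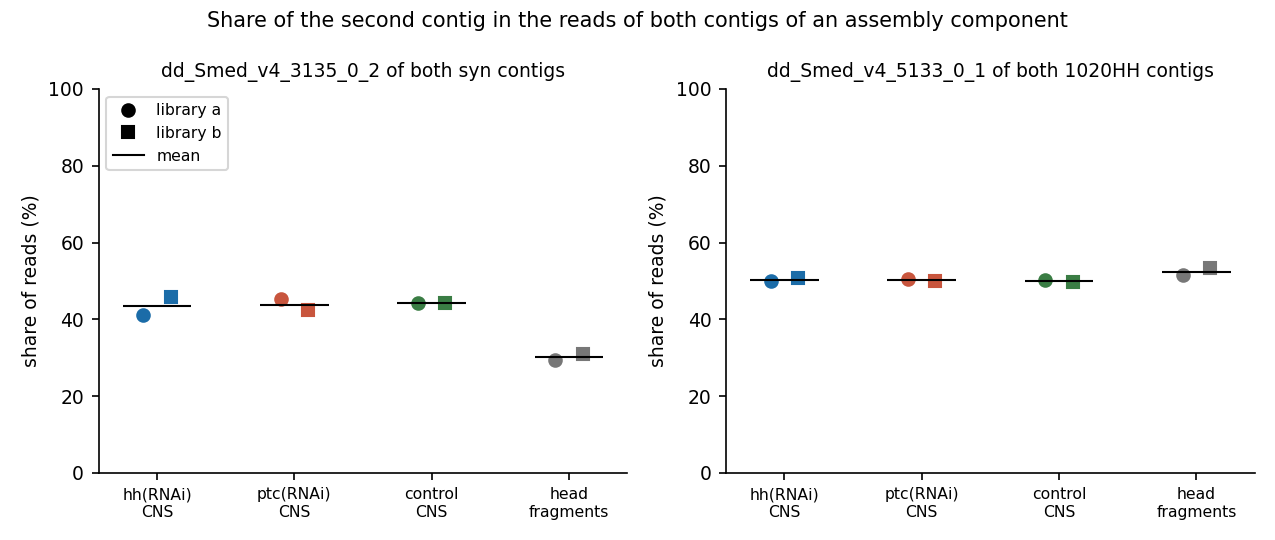
Share (%) of the second contig in the reads of both contigs of the *syn* component (left) and of the _1020HH_ component (right), per library; groups run from *hh(RNAi)* CNS to head fragments, circles and squares are libraries a and b, and the line is their mean. The second *syn* contig holds 41.1% to 45.8% in CNS libraries against 29.3% and 31.0% in head fragments, whereas the _1020HH_ contigs hold nearly equal reads in every library.

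The next comparisons asked whether the markers changed when Hh signaling was lowered or raised. In *hh(RNAi)* CNS over control CNS none of the 4 markers was called. *chat* was 1.19-fold the control level (95% confidence interval 0.834 to 1.71), *pc2* 1.10-fold (0.803 to 1.52), *syn* 1.10-fold (0.825 to 1.47) and _1020HH_ 0.924-fold (0.666 to 1.28). The adjusted p was 1.0 for each in limma. The count of 0 of 4 also held at an unadjusted p under 0.05, and with edgeR and DESeq2. Over all contigs, 276 of 12153 had an unadjusted p under 0.05 in limma. The background was low too, with 0% of 12153 contigs called higher and 0.00823% called lower in limma, and 0.0165% called in either direction in edgeR and 0.304% in DESeq2. The intervals reach down to 0.666-fold for _1020HH_ and up to 1.71-fold for *chat*. Both limits lie within the 2-fold change that a call requires, and *hh*, at a log2 fold change of -2.01 but far fewer reads, was not called by limma in the same comparison. Without library a of *hh(RNAi)* CNS the log2 fold changes of *syn* (-0.02) and _1020HH_ (0.09) turned in sign, and that of *chat* was 0.03, against 0.48 without library b. In the same comparison, the glial markers had log2 fold changes of -2.08 (*if-1*) and -2.80 (*cali*). Of these 2, limma and edgeR called 1 lower and DESeq2 called 2. The summed level of *if-1* and *cali* was 2924 to 3619 normalized reads in *hh(RNAi)* CNS, against 15083 to 19531 in control CNS, and their part in the values of the neuronal markers was not tested.

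In *ptc(RNAi)* CNS over control CNS none of the 4 was called either. *chat* was 0.872-fold the control level (0.672 to 1.13), *pc2* 0.976-fold (0.759 to 1.25), *syn* 0.992-fold (0.819 to 1.201) and _1020HH_ 0.843-fold (0.669 to 1.06). Adjusted p lay between 0.85 and 0.99 in limma. Over all contigs, 774 of 12121 had an unadjusted p under 0.05 in limma. Again 0 of 4 reached an unadjusted p under 0.05, and 0 of 4 were called by edgeR or DESeq2, beside a background of 0.264% of 12121 contigs called higher and 0.0743% called lower in limma, and 0.297% in either direction in edgeR and 1.04% in DESeq2. All 4 values lay below the control level, the lowest being those of _1020HH_ and *chat*. Without library a of *ptc(RNAi)* CNS *pc2* (0.07) and *syn* (0.05) turned in sign on the log2 scale, as did *syn* (0.01) without library b of control CNS, and *chat* ran from -0.36 to -0.03 with a library left out. Markers without the CNS label summed to 26164 and 27992 normalized reads in *ptc(RNAi)* CNS, against 20029 and 24713 in control CNS. Of 14 such markers tested, limma and edgeR called 1 higher and DESeq2 called 2, with 0 lower. Their median log2 fold change was 0.013 in limma, against -0.011 over all tested contigs. They ran from *agat-1* at -0.78 to *mag-1* at 1.43, the latter called (adjusted p = 0.011 in limma). The part of such markers in the values of the neuronal genes was not tested.

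In the last comparison, *hh(RNAi)* CNS was set directly against *ptc(RNAi)* CNS, a comparison with no shared control library. *chat* was 1.36-fold higher in *hh(RNAi)* CNS (95% confidence interval 0.922 to 2.00), a difference that was not called (adjusted p = 0.88 in limma). Both its *hh(RNAi)* libraries lay above both *ptc(RNAi)* libraries, but how many contigs did so was not counted. *pc2* was 1.12-fold the *ptc(RNAi)* level (0.826 to 1.52), *syn* 1.10-fold (0.827 to 1.46) and _1020HH_ 1.09-fold (0.744 to 1.58). In this comparison 0 of 4 were called by limma, edgeR or DESeq2, and 0 of 4 had an unadjusted p under 0.05 in limma, with 0% of 12127 contigs called higher and 0.107% called lower in limma, and 0.066% in either direction in edgeR and 1.29% in DESeq2. Of the 4, *chat* stood furthest from the median contig, by 0.46 on the log2 scale, and 3.22% of tested contigs had a larger log2 fold change. Its log2 fold change itself was 0.44. That value was 0.22 without library a of *hh(RNAi)* CNS, 0.66 without library b, 0.28 without library a of *ptc(RNAi)* CNS and 0.60 without library b. Some markers of other cell types also stood apart between these groups. Markers without the CNS label summed to 18271 and 20800 normalized reads in *hh(RNAi)* CNS, against 27992 and 26164 in *ptc(RNAi)* CNS, and the neoblast gene *smedwi-1* had a log2 fold change of -2.25 (adjusted p = 0.068 in limma). Of 13 such markers tested, limma and edgeR called 0 and DESeq2 called 1, lower, with 2 (limma) and 3 (edgeR) at an unadjusted p under 0.05. In limma, 797 of all 12127 tested contigs had such a p-value. The median log2 fold change of the 13 markers was -0.11, against -0.017 over all tested contigs. They ran from *smedwi-1* at -2.25 to *mat* (gut) at 0.73. The glial genes *if-1* and *cali* summed to 2924 to 3619 normalized reads in *hh(RNAi)* CNS, against 18388 to 20812 in *ptc(RNAi)* CNS. The part of these markers in the values of the neuronal genes was not tested. The sign turned for *syn* (-0.02 on the log2 scale) without library a of *hh(RNAi)* CNS, and for _1020HH_ without library b of *hh(RNAi)* CNS (-0.10) or of *ptc(RNAi)* CNS (-0.04).

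The neuronal classes gave the same picture between CNS groups. Of the 16 prohormone and neuropeptide genes, 0 were called in *hh(RNAi)* CNS over control CNS and 0 in *ptc(RNAi)* CNS over control CNS by limma, edgeR or DESeq2, with 1 and 2 at an unadjusted p under 0.05 in limma. Their median log2 fold changes were -0.14 with *hh(RNAi)*, against -0.019 over all tested contigs, and -0.23 with *ptc(RNAi)*, against -0.011. The 7 genes of vesicles and release had medians of 0.099 with *hh(RNAi)* and -0.0047 with *ptc(RNAi)*, and 0 were called by any of these tools or at an unadjusted p under 0.05. The 2 cholinergic genes had medians of 0.23 with *hh(RNAi)* and -0.077 with *ptc(RNAi)*, likewise with 0 called and 0 at that unadjusted p. Over all contigs in limma, 276 of 12153 with *hh(RNAi)* and 774 of 12121 with *ptc(RNAi)* had an unadjusted p under 0.05. Calls were rare there, with 0.00823% lower in *hh(RNAi)*, and 0.264% higher and 0.0743% lower in *ptc(RNAi)*, so counts of 0 called say little about a class.

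Within each RNAi group, the libraries differed from each other in one direction for _1020HH_ and in the opposite direction for the other 3 markers. In *hh(RNAi)* CNS the log2 difference of a from b was 0.39 for *chat*, 0.12 for *pc2* and 0.26 for *syn*, but -0.48 for _1020HH_. In *ptc(RNAi)* CNS it was -0.29 for *chat*, -0.16 for *pc2* and -0.074 for *syn*, but 0.34 for _1020HH_. Such differences were not extreme for these libraries, since between 23.2% and 79.5% of contigs differed by more. In control CNS the differences of the 4 markers stayed between -0.055 and 0.13.

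The classes of these genes also differed between the libraries of the RNAi groups. *chat* is 1 of the 2 cholinergic genes and *syn* 1 of the 7 vesicle and release genes, so part of any likeness of class and marker is built in. The panel also holds _1020HH-1_, which shares a component with _1020HH_, so any likeness through that contig may be built in as well. Library a of *hh(RNAi)* CNS was lower than library b for 16 of 16 prohormone and neuropeptide genes (median difference -0.53, against -0.12 over all contigs), while it was higher for 2 of 2 cholinergic genes (0.54) and for 5 of 7 vesicle and release genes (0.18). In *ptc(RNAi)* CNS library a was higher than library b for 16 of 16 prohormone and neuropeptide genes (0.34, against 0.073 over all contigs), and lower for 2 of 2 cholinergic genes (-0.37) and 7 of 7 vesicle and release genes (-0.13). In control CNS the medians were -0.076, -0.14 and -0.18 for prohormone, cholinergic and vesicle genes. There 13 of 16 prohormone genes were lower in library a, whereas _1020HH_ differed by 0.0089. In head fragments 11 of 13 prohormone genes were lower in library a (median -0.16), whereas _1020HH_ was higher by 0.096. _1020HH_ thus did not go with its class in these groups. *syn* was lower in library a in both, as were 6 of 7 vesicle and release genes. *chat* was lower in library a of head fragments, as were 2 of 2 cholinergic genes, but higher by 0.13 in control CNS. Members of a class share these libraries and are not independent, and the difference of libraries a and b was not tested.

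**Figure D5:**
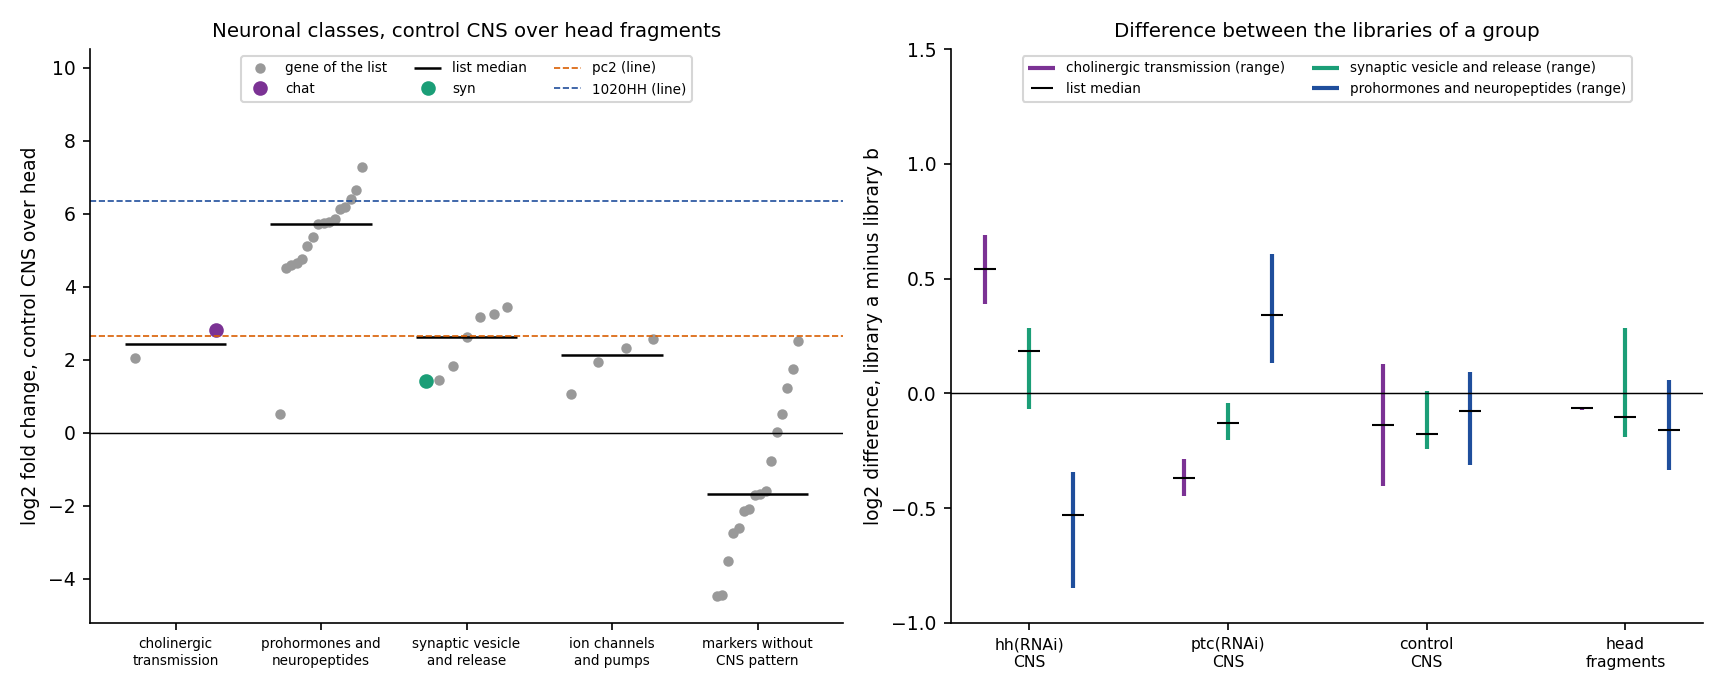
Left, log2 fold changes in control CNS over head fragments for the tested genes of 4 neuronal classes and of markers without the CNS label, each point a gene and each bar the median, with *chat* and *syn* in colour and dashed lines at *pc2* (2.66) and _1020HH_ (6.33). Right, log2 difference of library a minus library b in each group for 3 classes, as the range over genes with the median as a bar; prohormone and neuropeptide genes lie at a median of -0.53 in *hh(RNAi)* CNS and 0.34 in *ptc(RNAi)* CNS, opposite in sign to cholinergic genes at 0.54 and -0.37.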

How the data were processed

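mRNA of 8 *S. mediterranea* libraries was sequenced (TruSeq v2, Illumina). According to the methods, the authors trimmed 5 bases from the 5′ end of the reads, aligned them to contigs of the Dresden transcriptome in Bowtie2, with 1 best alignment per read, and used Samtools to count. The methods name DESeq2 for the comparisons, whereas the columns are named as by the nbinomTest function of DESeq. Versions are not given in the sources used here. The authors deposited 3 tables of 38634 contigs, whose signal columns hold, for each group, the mean over both libraries of reads divided by a size factor. Columns of the authors' own fold changes and p-values were not used.

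Because a mean of 2 libraries can only take values made of whole reads of each, the reads of both could be recovered from it. This solved 100% of means, with a largest relative misfit of 9.4e-10. In head fragments 55 contigs, of means from 18768 upwards, allowed more than 1 solution, and no marker was among them. Control CNS reads were identical in both RNAi tables for all 38634 contigs. The recovery and the fits were tested on simulated data.

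limma 3.58.1 (R 4.3.3) was fitted with a variance trend to log2(normalized reads + 1), using the 4 libraries compared and scaled by median-of-ratios size factors. A pseudocount of 1 understates the changes of low contigs. Contigs averaging 100 or more normalized reads were tested, and all 4 markers passed in all 6 comparisons. RPKM, in which the methods set a minimum, needs contig lengths and was not used here. edgeR 4.0.16 (quasi-likelihood) and DESeq2 1.42.0 on the recovered reads, other scalings, pseudocounts and minimums, a fit over all 8 libraries, summed components and each library left out were alternatives. Python 3.11.15 with numpy 2.4.6, pandas 2.3.3, scipy 1.17.1 and matplotlib 3.10.9 did the rest.

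Named genes were the markers, contigs of their components, the 3 listed contigs nearest to each in profile, the lowest and highest of each class, *hh*, *ptc*, *gapdh* and 7 markers of other tissues, with *ovo*, _1020HH-2_ and the glial genes *if-1* and *cali* added after their values were seen. The markers and lists were chosen with earlier results of these data known.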

Additional observations from a re-analysis of the deposited data

How the results depend on the processing

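No paired analysis was possible because the recovered libraries carry no replicate number. Under other scalings, pseudocounts and minimums, edgeR, DESeq2, a fit over all 8 libraries, summed components and each library left out, all 4 markers kept their direction and call in each comparison of CNS with head fragments (56 of 56 values each). Where 1 library was left in a group, the spread within groups came only from the other group of that comparison. Between CNS groups no marker was called under any of these alternatives, and 8 values changed sign, each with a library left out. With a library left out, log2 fold changes in *hh(RNAi)* over control CNS ran from -0.023 to 0.29 for *syn* and from -0.33 to 0.092 for _1020HH_. In *ptc(RNAi)* over control CNS they ran from -0.13 to 0.068 for *pc2* and from -0.067 to 0.051 for *syn*, which was 0.012 without control library b. In *hh(RNAi)* over *ptc(RNAi)* CNS they ran from -0.019 to 0.29 for *syn* and from -0.099 to 0.33 for _1020HH_, which was -0.036 without *ptc(RNAi)* library b.

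Counts of called contigs depended more on the setting. Against head fragments, control CNS had 4418 higher and 3000 lower, with 7498 and 10427 under no minimum, and 707 and 600 at a minimum of 1000. *hh(RNAi)* CNS had 4099 and 2999, with 6972 and 8917 under no minimum, 625 and 597 at 1000, and 3338 and 3571 relative to the median contig. *ptc(RNAi)* CNS had 4175 and 2974, with 7154 and 9383, 670 and 592, and 3201 and 3572 in that order. These minimums change how many contigs are tested. In *hh(RNAi)* over control CNS, 0 higher and 1 lower became 2 lower under no minimum and in edgeR, 37 in DESeq2 and 10 over all 8 libraries, and 0 to 5 higher and 0 to 8 lower with a library left out. In *ptc(RNAi)* over control CNS, 32 and 9 became 0 and 0 under no minimum, 6 and 0 at 1000, 88 and 38 in DESeq2, 17 and 2 over all 8 libraries, and 3 to 70 and 5 to 49 with a library left out. In *hh(RNAi)* over *ptc(RNAi)* CNS, 0 and 13 became 0 lower under no minimum, 8 at 1000 and in edgeR, 22 and 134 in DESeq2, 8 and 110 over all 8 libraries, and 2 to 75 and 22 to 191 with a library left out. The cause of the differences between tools was not tested.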
